A study of Mus musculus with 8 samples.

Results

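The genes described here are Basp1, its relatives Marcks and Marcksl1, and the membrane linkers Ezr and Msn, 5 genes of the 17384 in the deposited table. Basp1 was chosen from these same libraries, as the gene with the strongest evidence of a fall in EAF2Faslpr cells. Marcks and Marcksl1 were added as relatives and Ezr and Msn as comparison, with earlier results of these data known. All 5 were among the 12340 genes that passed the filter on low counts.

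RNA was sequenced from B220+CD3+ spleen cells of 2 groups of mice, 4 libraries titled EAF2Faslpr and 4 titled Faslpr, and values with ± are means and SDs over the 4 libraries of a group. The series text names the animals Eaf2-/-Faslpr and Faslpr, so both groups carry the lpr mutation of the death receptor gene Fas; the EAF2Faslpr group is also labelled Eaf2-/-, a knockout of a gene that encodes a transcription elongation factor. The labels used here do not state strain background, age, sex or the deleted part of Eaf2. Nor do they say whether each library is another animal; the p-values rest on the library-to-library spread alone, and this could be technical.

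The inner leaflet of the plasma membrane holds the lipid phosphatidylinositol 4,5-bisphosphate, PIP2, which anchors actin regulators and is the substrate of phospholipase C and PI3 kinase. BASP1, MARCKS and the MARCKS-like protein are myristoylated proteins whose basic stretches bind and cluster PIP2, and protein kinase C or calmodulin releases MARCKS from the membrane. Ezrin and moesin of the ERM family open when they bind PIP2 and then tie membrane receptors to cortical actin. In T cells ERM proteins hold large sialomucins away from the contact with an antigen-presenting cell. BASP1 was described first in nervous tissue, and in the nucleus it acts as a co-repressor of the transcription factor WT1.

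The upstream sequences of Basp1, which fell, and of its relative Marcksl1, whose groups overlapped, are shown because both genes encode proteins of one family. Each holds the 250 bases before the annotated start, from RefSeq on build GRCm38.p6, and capitals mark every GGGCGG or CCAAT on either strand, so that CCAAT read on the other strand stands as ATTGG. The Basp1 bases are chr15:25413765-25414014 on the minus strand and those of Marcksl1 are chr4:129513331-129513580 on the plus strand.
Basp1: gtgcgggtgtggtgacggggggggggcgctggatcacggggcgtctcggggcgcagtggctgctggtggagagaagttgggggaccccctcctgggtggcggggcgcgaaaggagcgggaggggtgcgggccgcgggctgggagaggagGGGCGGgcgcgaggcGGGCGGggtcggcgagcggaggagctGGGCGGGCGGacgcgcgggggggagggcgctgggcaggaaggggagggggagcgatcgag
Marcksl1: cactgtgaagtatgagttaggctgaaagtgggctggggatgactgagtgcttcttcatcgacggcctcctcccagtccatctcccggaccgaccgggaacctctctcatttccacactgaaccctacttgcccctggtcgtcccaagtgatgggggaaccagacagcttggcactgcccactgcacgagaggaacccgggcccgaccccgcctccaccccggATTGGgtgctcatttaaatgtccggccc
The Basp1 bases were 78.8% G or C with 30 CpG pairs, more than in 94.1% of the 32851 RefSeq windows of this length, whose median was 6. They held 4 copies of GGGCGG, a sequence known as the GC box, the last pair overlapping, and none of the other motifs searched. The Marcksl1 bases were 60.4% G or C with 12 CpG pairs, and held 1 CCAAT and no other motif searched. Those of Ezr, not printed, had 32 CpG pairs, 2 GGGCGG and 1 TGACTCA, and those of Msn 18 CpG pairs, 3 GGGCGG and 1 CACGTG, so GGGCGG and many CpG pairs also stood before genes whose groups overlapped. Of all windows, 32.7% held GGGCGG, 33.8% CCAAT, 12.4% TATAAA, 6.02% CACGTG and 4.46% TGACTCA. A match describes the letters only.

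Library depth ran from 15.6 to 18.6 megareads of estimated counts, and a level of 3 reads was 0.161 to 0.193 CPM (counts per megaread, TMM-scaled). Eaf2, the gene named in the genotype, was at 4.74 ± 1.05 CPM in EAF2Faslpr and 25.5 ± 4.50 CPM in Faslpr cells, and Fas at 64.2 ± 6.87 and 54.3 ± 9.82 CPM (adjusted p = 0.276 by edgeR). Eaf2 reads thus remained in EAF2Faslpr cells, above the level of 3 reads, and which part of the transcript they cover is not known from a count per gene. EAF2Faslpr replicate 3 stood apart, with the highest summed level of B cell, macrophage and neutrophil markers. The 8 T cell markers, among them Cd3e and Cd3d, summed to between 3678 and 3949 CPM in EAF2Faslpr and between 3411 and 4191 CPM in Faslpr libraries, and by edgeR 0 of 8 passed, with 1 by DESeq2, 0 by limma-voom and 2 at an unadjusted p under 0.05. All 12 B cell markers rose (10 of 12 without EAF2Faslpr replicate 3), where 7.14% of all genes tested rose, summing to between 358 and 694 CPM in EAF2Faslpr and between 96.9 and 162 CPM in Faslpr libraries. Of the macrophage and monocyte markers 3 of 11 rose by edgeR and DESeq2, and 2 by limma-voom. Of those of antibody-secreting cells 1 of 6 fell by edgeR and limma-voom, and 2 by DESeq2. Of all genes tested 4.96% fell by edgeR. By edgeR, DESeq2 and limma-voom alike 0 of 4 neutrophil, 0 of 3 dendritic cell, 0 of 2 NK cell and 0 of 5 erythroid and platelet markers passed, with 3, 0, 1 and 0 at an unadjusted p under 0.05. At least 12.1% of all genes tested had an unadjusted p under 0.05, since that share passed after adjustment. The exact share is not given here, so unadjusted counts, here and below, cannot be set against it.

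Basp1 RNA was low in every EAF2Faslpr library and abundant in every Faslpr library. It had 61, 57, 57.99 and 55 estimated reads in EAF2Faslpr replicates 1 to 4, which is 3.92, 3.11, 3.20 and 3.04 CPM. The Faslpr replicates 1 to 4 had 1903, 1642, 1689 and 1803 reads, or 109, 97.8, 92.9 and 97.0 CPM. The groups lay far apart: the lowest Faslpr library was 23.7-fold above the highest EAF2Faslpr library. Basp1 averaged 3.32 ± 0.407 CPM in EAF2Faslpr and 99.2 ± 6.90 CPM in Faslpr cells. On the log2 scale the difference was −4.91, and the EAF2Faslpr mean was 3.34% of the Faslpr mean. Each EAF2Faslpr library still held reads well above the level of 3 reads. The spread within a group was small on both sides, with a coefficient of variation of 12.3% in EAF2Faslpr and 6.96% in Faslpr cells. In a bulk sample, fewer cells that express Basp1 and less Basp1 RNA per cell cannot be told apart.

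Because this contrast chose Basp1, its values are a description and carry no test. In the order by p among genes lower in EAF2Faslpr cells, Basp1 stood first and the predicted gene Gm10029 second (0.472 ± 0.0366 against 63.3 ± 14.5 CPM). Next came Dock9, an exchange factor for the GTPase CDC42, at 256 ± 36.6 against 1239 ± 60.6 CPM, followed by the ribosomal protein gene Rpl21, whose many copies in the genome make its value uncertain. By size of fall Basp1 was 8th of the 612 genes that fell, and 1 of 11 that fell at least 16-fold. With any 1 library left out its log2 fold change lay between −4.99 and −4.86, again a description. No other transcript of the GENCODE M21 annotation matched Basp1 at 80% identity or more over at least 150 bases, nor Marcks or Msn.

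**Figure D1:**
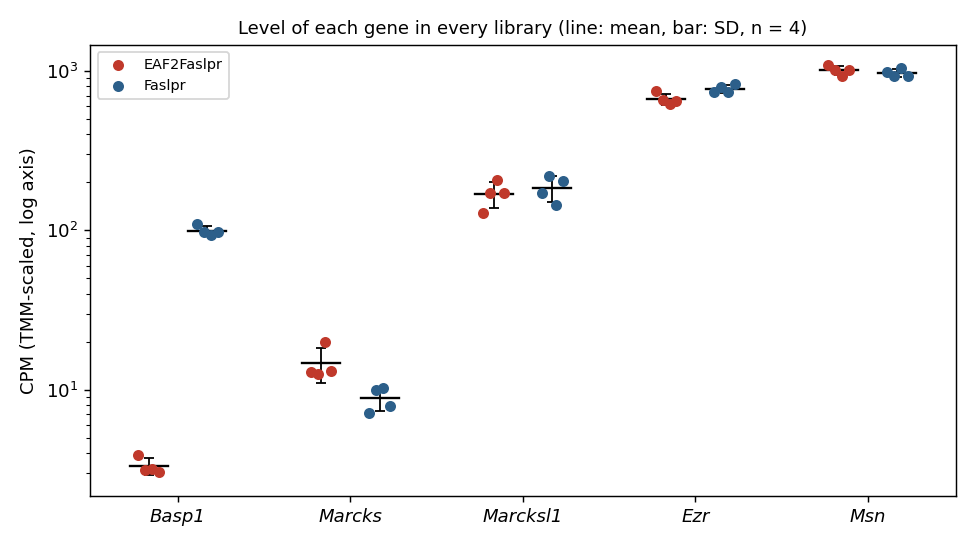
Level of the 5 genes in CPM on a log axis, with 1 point per library, EAF2Faslpr in red to the left of Faslpr in blue, a line at the mean and a bar of 1 SD (n = 4). Basp1 sits between 3.04 and 3.92 CPM in EAF2Faslpr and between 92.9 and 109 CPM in Faslpr libraries, while the points of Marcksl1, Ezr and Msn overlap.

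Marcks, the gene of the classical PIP2-sequestering substrate of protein kinase C, rose in EAF2Faslpr cells. Its level was 13.0, 12.5, 20.1 and 13.2 CPM in EAF2Faslpr replicates 1 to 4, and 7.16, 10.01, 10.2 and 7.91 CPM in Faslpr replicates 1 to 4. The groups did not overlap, and EAF2Faslpr replicate 3 was well above the other libraries. Marcks averaged 14.7 ± 3.60 CPM in EAF2Faslpr and 8.83 ± 1.53 CPM in Faslpr cells and rose 1.66-fold (log2 fold change 0.73, SE 0.19, adjusted p = 0.0276 by edgeR's quasi-likelihood test over all genes). Of all genes tested, 12.1% passed in either direction, 7.14% higher and 4.96% lower, and groups did not overlap for 17.7%, 9.71% with EAF2Faslpr higher and 7.96% with it lower. Of the other 4 genes Marcks alone passed.

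The Marcks call rested on several single libraries. It was lost without EAF2Faslpr replicate 3 (log2 fold change 0.54, adjusted p = 0.0613), without Faslpr replicate 1 (0.65, adjusted p = 0.0752) and without Faslpr replicate 4 (0.68, adjusted p = 0.0649), and its direction was the same in every fit that left out 1 library. EAF2Faslpr replicate 3 also had the highest summed B cell markers, 694 CPM against 358, 391 and 384 CPM in the other EAF2Faslpr libraries, and 172 CPM of macrophage and monocyte markers against 89.3, 93.7 and 72.3 CPM. The cells were selected as B220+CD3+, and whether these transcripts came from other cells was not tested, nor was their part in the Marcks level.

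**Figure D2:**
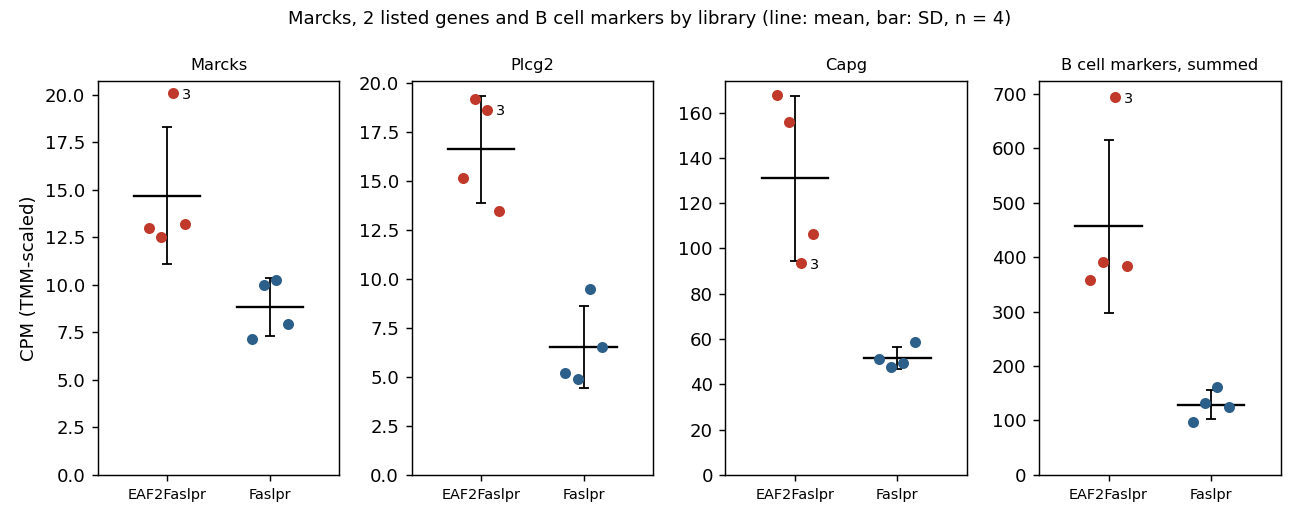
CPM of Marcks, of the listed genes Plcg2 and Capg, and of 12 B cell markers summed, with 1 point per library, EAF2Faslpr left of Faslpr, a line at the mean and a bar of 1 SD (n = 4); the number 3 marks EAF2Faslpr replicate 3. That library is highest for Marcks (20.1 CPM) and for the B cell markers (694 CPM), and lowest of its group for Capg (93.5 CPM).

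Marcksl1, which encodes the MARCKS-like protein, gave no call. It was at 129, 172, 206 and 170.4 CPM in EAF2Faslpr replicates 1 to 4 and at 171, 218, 145 and 205 CPM in Faslpr replicates 1 to 4. Both groups spanned nearly the same range, with the lowest library in EAF2Faslpr and the highest in Faslpr. The means were 169 ± 31.4 CPM in EAF2Faslpr and 185 ± 33.1 CPM in Faslpr cells (log2 fold change −0.13, 95% interval −0.47 to 0.22, adjusted p = 0.683 by edgeR). Its coefficients of variation, 18.5% and 17.9% in EAF2Faslpr and Faslpr cells, were the highest of the 5 genes in Faslpr and second to Marcks in EAF2Faslpr. GENCODE M21 holds 3 other genes that match Marcksl1 at 89.9% to 91.0% identity over at least 306 bases, so its estimated counts may share reads with them.

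Ezr encodes ezrin, which links membrane proteins to actin. Its level was 745, 655, 622 and 649 CPM in EAF2Faslpr replicates 1 to 4 and 735, 790.5, 736 and 833 CPM in Faslpr replicates 1 to 4. EAF2Faslpr replicate 1 alone overlapped with the Faslpr libraries, and the other EAF2Faslpr libraries lay below all of them. Ezr averaged 668 ± 53.2 CPM in EAF2Faslpr and 774 ± 47.3 CPM in Faslpr cells, a log2 fold change of −0.21 (95% interval −0.39 to −0.04) that did not pass over all genes (adjusted p = 0.114 by edgeR). It passed in 0 of 8 fits that left out 1 library, with the lowest adjusted p at 0.0543. The GENCODE M21 gene Gm5739 matches Ezr at 84.5% identity over 1765 bases, so the estimated counts of Ezr may share reads with it.

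Msn encodes moesin, the ERM protein that prevails in lymphocytes and ties CD43 to actin. It was at 1088, 1019, 934 and 1012 CPM in EAF2Faslpr replicates 1 to 4 and at 989, 929, 1038 and 934 CPM in Faslpr replicates 1 to 4. The groups overlapped, and the means were 1013 ± 63.0 CPM in EAF2Faslpr and 973 ± 51.4 CPM in Faslpr cells (log2 fold change 0.06, 95% interval −0.10 to 0.22, adjusted p = 0.679 by edgeR). Within the Faslpr group the libraries ran in opposite order for Msn and Marcksl1, and in EAF2Faslpr the library with the most Msn, replicate 1, had the least Marcksl1 and the one with the least Msn, replicate 3, had the most.

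Per unit of gene length, on the authors' FPKM scale, the order of the 5 levels differed between the groups at its lower end. In EAF2Faslpr cells it ran Msn (268 ± 15.1 FPKM), Ezr (222 ± 16.9), Marcksl1 (109.5 ± 21.0), Marcks (3.56 ± 0.907) and Basp1 (1.84 ± 0.224), and no neighbours in that order overlapped. In Faslpr cells it ran Msn (255 ± 13.5 FPKM), Ezr (255 ± 16.5), Marcksl1 (118 ± 21.5), Basp1 (54.6 ± 3.37) and Marcks (2.125 ± 0.380), and only Msn and Ezr overlapped. Basp1 FPKM was thus below Marcks FPKM in each EAF2Faslpr library, at 0.366 to 0.693 of the Marcks level, and above it in each Faslpr library, by 20.8-fold to 34.9-fold. Among all genes tested the mean Basp1 FPKM stood 9962nd in EAF2Faslpr and 1529th in Faslpr cells.

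The summed FPKM of Basp1, Marcks and Marcksl1 was 88.5, 116, 141 and 114 in EAF2Faslpr replicates 1 to 4 and 169.6, 197, 147 and 187 in Faslpr replicates 1 to 4. Basp1 made up 1.27% to 2.45% of that sum in EAF2Faslpr and 27.5% to 35.0% in Faslpr libraries, while Marcksl1 made up 94.0% to 95.9% and 63.4% to 71.3%. Ezr and Msn together summed to 490 ± 31.4 FPKM in EAF2Faslpr and 510.3 ± 11.2 FPKM in Faslpr cells. The ratio of Ezr to Msn within a library lay between 0.805 and 0.859 in EAF2Faslpr and between 0.890 and 1.12 in Faslpr libraries, so the ratio did not overlap between groups. That ratio was picked after its values were seen and carries no test.

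**Figure D3:**
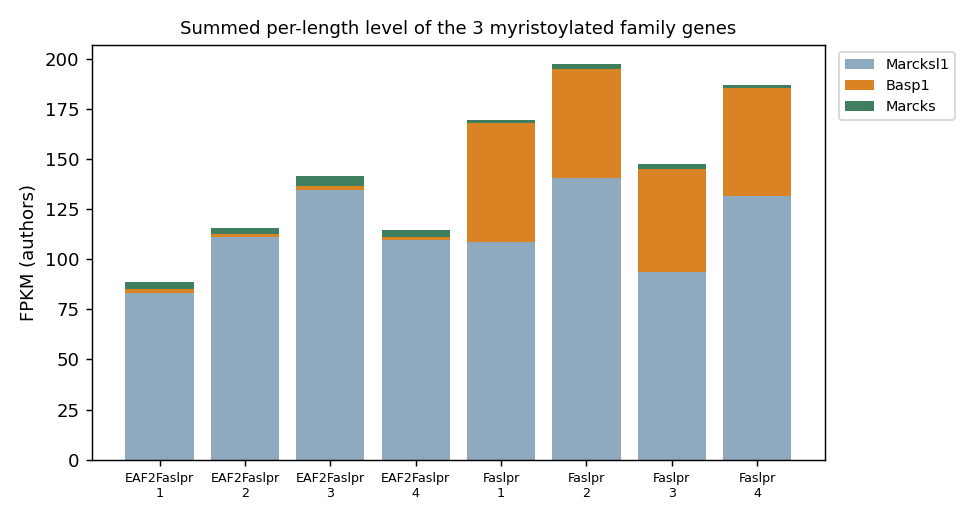
Stacked bars of the authors' FPKM for Marcksl1, Basp1 and Marcks in each library, EAF2Faslpr replicates on the left and Faslpr replicates on the right. The Basp1 segment is 1.68 to 2.17 FPKM in EAF2Faslpr and 51.5 to 59.4 FPKM in Faslpr libraries.

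Genes around PIP2 and the cortex were taken from 10 lists. Apart from the 5 genes above, 110 list genes were tested, of which 9 rose and 5 fell by edgeR, 8.18% and 4.55%, near the 7.14% and 4.96% of all genes tested. Their median log2 fold change was −0.018, and that of all genes tested −0.013. These shares and this median of all genes tested are the background for each list below. Of the 4 ERM genes, Ezr, Msn, Rdx and Nf2, 0 passed by edgeR, DESeq2 or limma-voom, with 1 at an unadjusted p under 0.05. Radixin (Rdx) was at 182 ± 16.9 CPM in EAF2Faslpr and 196 ± 33.4 CPM in Faslpr cells, and Nf2, the gene of the ERM relative merlin, at 71.5 ± 4.07 and 64.9 ± 1.60 CPM.

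Membrane anchors, kinases and other partners of ERM proteins had 1 of 14 genes higher and 1 lower (median log2 fold change 0.02). Icam1, the adhesion receptor bound by LFA-1, rose 2.14-fold to 21.8 ± 6.20 CPM in EAF2Faslpr cells, against 10.2 ± 2.45 CPM in Faslpr cells (adjusted p = 0.00921 by edgeR). The part of B cell and other transcripts in the Icam1 level was not tested. Spn, the gene of the sialomucin CD43 and a classical ERM ligand, was at 994, 965, 869 and 887 CPM in EAF2Faslpr replicates 1 to 4 and at 1077, 1065, 1182 and 1148 CPM in Faslpr replicates 1 to 4. The groups did not overlap and Spn fell 1.20-fold (adjusted p = 0.0371 by edgeR), a call kept in 1 of 8 fits that left out 1 library, without EAF2Faslpr replicate 1.

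Of the kinases that make PIP2 or its precursor lipid, 0 of 9 passed by edgeR, DESeq2 or limma-voom and 0 had an unadjusted p under 0.05. Pip4k2c, the most abundant per length, was at 168 ± 5.57 CPM in EAF2Faslpr and 183 ± 15.8 CPM in Faslpr cells. Of the enzymes that break down PIP2 and its relatives, 4 of 20 rose (20%) and 1 fell (5%), with a median log2 fold change of −0.011. Of all genes tested 7.14% rose and 4.96% fell. Plcg2, the phospholipase C of B cell receptor signalling, was at 15.2, 19.2, 18.6 and 13.5 CPM in EAF2Faslpr replicates 1 to 4 and at 5.21, 4.89, 9.47 and 6.51 CPM in Faslpr replicates 1 to 4. The groups did not overlap, and Plcg2 rose 2.54-fold (log2 fold change 1.35, SE 0.21, adjusted p = 0.00276 by edgeR). B cell markers rose too, and their part in the Plcg2 level was not tested.

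Pip4p2, which encodes a PIP2 4-phosphatase, rose 2.70-fold at a level of 2.21 ± 0.304 CPM in EAF2Faslpr and 0.810 ± 0.309 CPM in Faslpr cells (adjusted p = 0.0118 by edgeR). Plcg1, the phospholipase C of T cell receptor signalling, rose 1.20-fold (237 ± 13.6 CPM in EAF2Faslpr, 198 ± 14.3 CPM in Faslpr; adjusted p = 0.0437), a call kept in 1 of 8 fits that left out 1 library, without Faslpr replicate 3. Inpp5f, a Sac-domain phosphatase, rose 1.38-fold (adjusted p = 0.0238), kept without EAF2Faslpr replicate 1 or Faslpr replicates 2 or 4 and lost without any of the other 5 libraries. Inppl1, the gene of the 5-phosphatase SHIP2, fell 1.88-fold to 39.8 ± 9.61 CPM in EAF2Faslpr cells, against 74.7 ± 20.6 CPM in Faslpr cells (adjusted p = 0.0193), lost without EAF2Faslpr replicates 2 or 3 or Faslpr replicate 1 (adjusted p up to 0.0563). Without EAF2Faslpr replicate 3, Plcg2 and Pip4p2 were the 2 genes of the list that passed.

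Protein kinase C isoforms, protein kinase D and calmodulin, which act on MARCKS, had 2 of 13 genes higher and none lower (median log2 fold change 0.08). Prkcb, the isoform of B cell receptor signalling, rose 1.43-fold to 103 ± 5.24 CPM in EAF2Faslpr cells, against 72.2 ± 7.12 CPM in Faslpr cells (adjusted p = 0.00305 by edgeR). Prkce rose 1.36-fold to 42.1 ± 2.69 CPM in EAF2Faslpr cells, against 30.9 ± 2.30 CPM in Faslpr cells (adjusted p = 0.00575). Leaving out any 1 of the 8 libraries kept both calls. B cell markers also rose between the groups, and EAF2Faslpr replicate 3 had the most of them. That library was the lowest of its group for Prkcb, at 98.3 CPM with the others between 99.6 and 110 CPM. For Prkce it was lowest too, at 39.4 CPM with the others between 40.8 and 45.6 CPM. The part of B cell transcripts in either level was not tested. Prkch, the most abundant of the list per length, was at 921 ± 109 CPM in EAF2Faslpr and 1041 ± 82.3 CPM in Faslpr cells and did not pass, nor did Prkcq, the isoform of the T cell synapse, or the 3 calmodulin genes.

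Of the enzymes of N-myristoylation and palmitoylation, 1 of 9 fell and none rose (median log2 fold change −0.07). It was Nmt2, a transferase that attaches the myristate, which fell 1.22-fold to 117 ± 9.02 CPM in EAF2Faslpr cells, against 143 ± 10.4 CPM in Faslpr cells (adjusted p = 0.0404 by edgeR), a call kept in 1 of 8 fits that left out 1 library, without Faslpr replicate 4. The other transferase gene, Nmt1, was at 88.3 ± 3.17 and 94.1 ± 4.87 CPM in EAF2Faslpr and Faslpr cells. Zdhhc18, the most abundant acyltransferase gene of the list per length, was at 220.5 ± 8.72 CPM in EAF2Faslpr and 241 ± 29.2 CPM in Faslpr cells.

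Among actin regulators that bind PIP2, 2 of 24 rose and 2 fell (median log2 fold change −0.03). Actn1, the gene of the cross-linker alpha-actinin-1, was at 15.4, 21.8, 18.9 and 18.0 CPM in EAF2Faslpr replicates 1 to 4 and at 4.64, 5.60, 7.59 and 5.06 CPM in Faslpr replicates 1 to 4. The groups lay apart, and Actn1 rose 3.24-fold (log2 fold change 1.70, SE 0.17, adjusted p = 0.00025 by edgeR). Capg, which caps filament ends, was at 168, 156, 93.5 and 106 CPM in EAF2Faslpr replicates 1 to 4 and at 51.1, 47.5, 49.3 and 58.6 CPM in Faslpr replicates 1 to 4. It rose 2.53-fold (adjusted p = 0.0011), and within its group was lowest in EAF2Faslpr replicate 3. B cell and macrophage markers were highest in that library, and the part of other cells in the Capg and Actn1 levels was not tested.

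Vcl, the gene of vinculin, fell 1.55-fold to 17.7 ± 1.86 CPM in EAF2Faslpr cells, against 27.4 ± 2.72 CPM in Faslpr cells (adjusted p = 0.00415 by edgeR). Pfn2, a profilin gene, fell 2.10-fold at a level of 1.38 ± 0.422 CPM in EAF2Faslpr and 2.92 ± 0.768 CPM in Faslpr cells (adjusted p = 0.0324), kept without EAF2Faslpr replicate 2 or Faslpr replicates 1 or 3 and lost without any of the other 5 libraries. Pfn1, the most abundant of the list per length, and Cfl1 did not pass, with Pfn1 at 1052 ± 59.1 CPM in EAF2Faslpr and 1178 ± 250.3 CPM in Faslpr cells. Without EAF2Faslpr replicate 3, Capg and Actn1 rose and Vcl fell.

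The spectrin, adducin and protein 4.1 list had 0 of 14 genes past the threshold by edgeR and limma-voom and 1 by DESeq2. It had 4 at an unadjusted p under 0.05, as had at least 12.1% of all genes tested. The most abundant gene of the list per length was Add3, an adducin whose tail resembles the MARCKS effector stretch. Add3 was at 367 ± 25.8 CPM in EAF2Faslpr and 449 ± 55.1 CPM in Faslpr cells (adjusted p = 0.0789 by edgeR). Of the genes whose proteins work with nuclear BASP1, 0 of 5 passed by edgeR and limma-voom, 1 by DESeq2, and 1 had an unadjusted p under 0.05. Hdac1 was at 373 ± 6.32 CPM in EAF2Faslpr and 377 ± 26.1 CPM in Faslpr cells, and Myc at 99.4 ± 5.57 and 112 ± 17.5 CPM. Wt1, also on this list, had no row under that symbol in the deposited table.

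**Figure D4:**
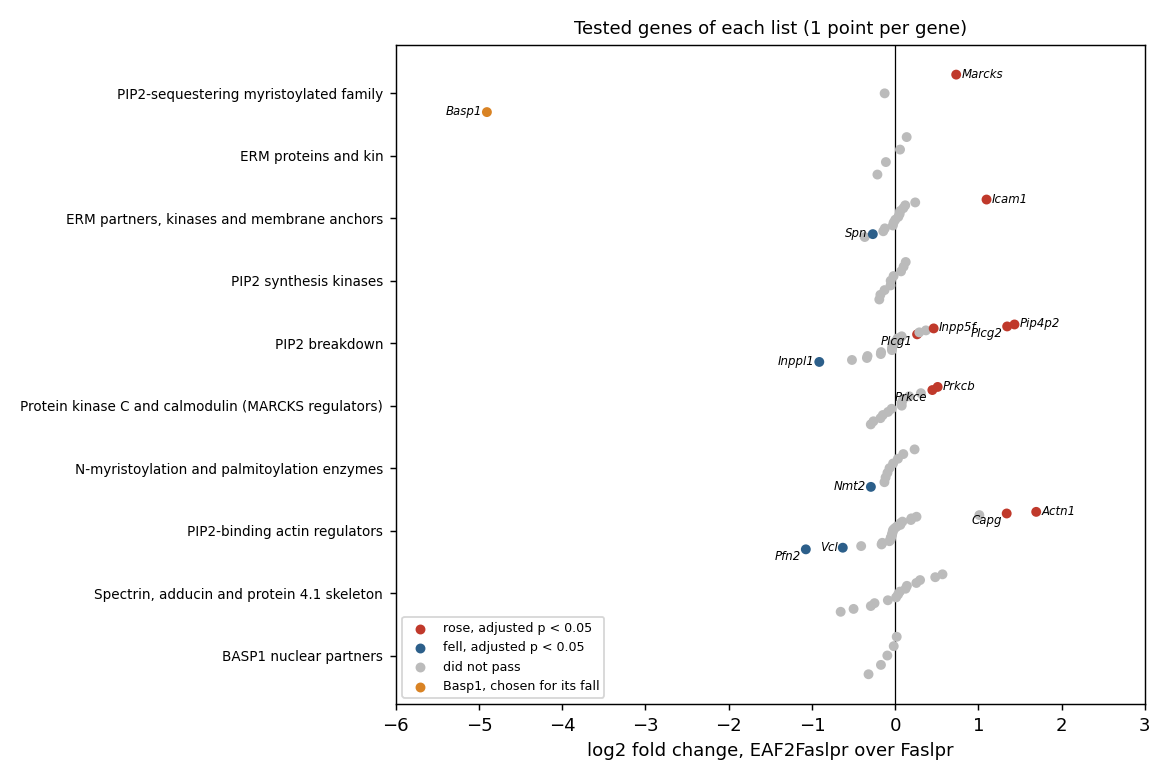
Log2 fold change of EAF2Faslpr over Faslpr for each tested gene of the 10 lists, 1 point per gene, red where the gene rose and blue where it fell at an adjusted p under 0.05, gray where it did not pass, and orange for Basp1, which was chosen for its fall. Basp1 at −4.91 is the lowest point and Actn1 at 1.70 the highest.

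Basp1 lies on chromosome 15, Marcks on 10, Marcksl1 on 4, Ezr on 17 and Msn on X. Of the 5 nearest tested genes on each side of Basp1, by their order in the RefSeq table of GRCm38.p6, 1 rose and 1 fell by edgeR. Drosha, a microRNA-processing enzyme, was at 44.6 ± 1.70 CPM in EAF2Faslpr and 44.4 ± 2.98 CPM in Faslpr cells, and the myosin gene Myo10 at 2.18 ± 0.529 and 1.94 ± 0.303 CPM. Retreg1, an ER-phagy receptor, was at 605 ± 26.2 CPM in EAF2Faslpr and 638 ± 57.0 CPM in Faslpr cells. Ank, a membrane transporter gene, fell 1.66-fold to 12.7 ± 1.21 CPM in EAF2Faslpr cells, against 21.1 ± 1.64 CPM in Faslpr cells (adjusted p = 0.00175), and Zfp622 rose 1.31-fold (adjusted p = 0.00497). The pseudogene next to Basp1, Hnrnpa1l2-ps2, was below 1 CPM in both groups, and Golph3, Pdzd2, 6030458C11Rik and Otulin did not pass. Over chromosome 15, 19 of 492 tested genes fell, 3.86%, and 47 rose, 9.55%. Of all genes tested 4.96% fell and 7.14% rose.

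**Figure D5:**
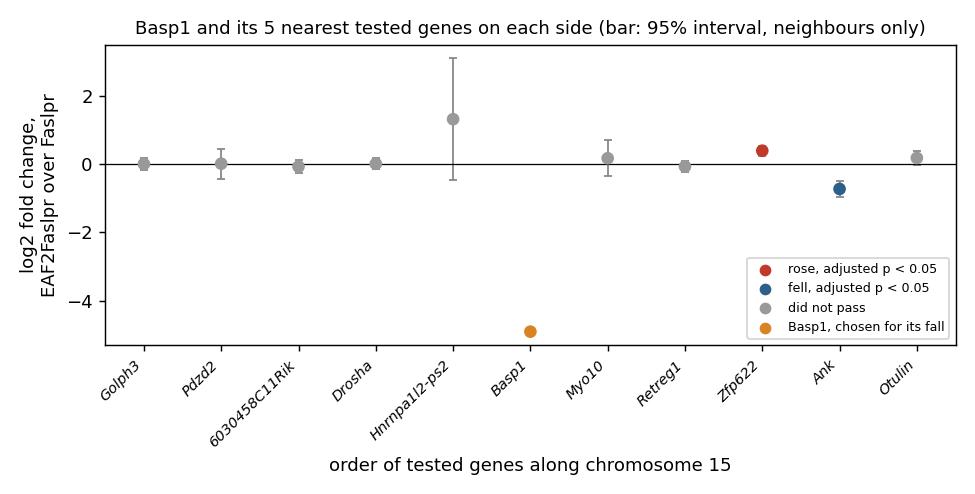
Log2 fold change of EAF2Faslpr over Faslpr for Basp1 (orange, without an interval) and the 5 nearest tested genes on each side with their 95% intervals, in chromosome order without distances. Basp1 is at −4.91, and the neighbours lie between −0.73 (Ank, fell) and 1.31 (the low Hnrnpa1l2-ps2, did not pass).

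The genes whose pattern was most like that of Basp1 were found by Pearson's r of log2 CPM over the 8 libraries, among 9927 genes averaging at least 5 CPM. That average ran over both groups, so a gene very low in either group could enter through the other. Since the groups lie so far apart for Basp1, r mostly picks genes that separate the groups with little spread. It was above 0.95 for 62 genes and below −0.95 for 110. Predicted genes such as Gm10029 were left out of the listing that follows, so its order holds only for the genes named. Among these, Glrx, a glutaredoxin, had the highest r (0.991). It was at 20.9 ± 2.401 CPM in EAF2Faslpr and 73.9 ± 4.72 CPM in Faslpr cells. Next came Hgsnat, a lysosomal acetyltransferase (r = 0.991), and the somatostatin receptor gene Sstr2 (r = 0.991). Rpl21 and the phosphodiesterase gene Enpp6 followed (r = 0.989 for both). Sstr2 was at 0.786 ± 0.599 CPM in EAF2Faslpr and 39.6 ± 5.12 CPM in Faslpr cells, and Enpp6 at 1.48 ± 1.07 and 66.5 ± 14.0 CPM. The most opposite patterns among the genes named were those of Hmga1b, Arhgap31 and Glo1. Hmga1b (r = −0.996) is a copy of Hmga1 whose reads cannot be placed with certainty. Arhgap31, an inactivator of RAC1 and CDC42 (r = −0.994), was at 38.8 ± 7.74 CPM in EAF2Faslpr and 0.337 ± 0.147 CPM in Faslpr cells. Glo1, a glyoxalase (r = −0.990), was at 109.6 ± 4.28 and 40.1 ± 2.94 CPM. Over the same libraries r with Basp1 was 0.79 for Ezr, 0.24 for Marcksl1, −0.36 for Msn and −0.83 for Marcks. Taken as deviations from the group means, r was 0.49 for Ezr, −0.45 for Marcksl1, 0.39 for Msn and −0.38 for Marcks. The sign thus turned for Marcksl1 and Msn. With 4 libraries per group, whether any of these values differs from no correlation was not tested, and they are a description.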

How the data were processed

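RNA of sorted B220+CD3+ spleen cells was extracted with TRIzol for mRNA libraries on DNBSEQ, per the labels' protocols. For each library and 17384 genes the authors deposited estimated counts, unscaled, and FPKM. The submitters' processing notes name RSEM 1.3.1, HISAT2 2.2.1, Bowtie2 2.4.5 and GRCm39 without role or order, and no source used here gives the annotation, filters or strand setting. A further 16 per-sample columns (TPM and normalised counts) were not used.

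Groups and replicate numbers came from the titles. Estimated counts were rounded, filtered with filterByExpr (12340 genes kept), scaled with TMM factors and tested with edgeR's quasi-likelihood test (edgeR 4.0.16, R 4.3.3) over all 8 libraries with no covariate, with Benjamini-Hochberg adjustment and a threshold of 0.05. Adjusted p-values are edgeR's, over all genes tested, where no tool stands beside them. Fold changes are EAF2Faslpr over Faslpr, SEs are the size of the log2 value over the root of F, and levels are mean ± SD. FPKM served to compare genes per length. The test was checked on simulated data. DESeq2 1.42.0, limma-voom (limma 3.58.1), DESeq2's size factors, no filter, FPKM with 2 pseudocounts, the replicate number as a block and fits without each library were alternatives. Replicates differed by more than sampling noise (chi-square per degree of freedom at least 9.46), so none was counted as the same library sequenced again. This does not show whether each library is another animal.

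The 5 genes, the 10 pathway lists and the 8 marker lists were chosen with earlier results of these data known. Named genes were Eaf2, the 5 genes, and of each pathway list the most abundant gene and up to 4 that passed by smallest p. Also named were the genes most like and most unlike Basp1, predicted genes left out, and those next to it in the order by p. The neighbours of Basp1 were named too and were placed through the RefSeq table (12253 tested genes matched). Gm10029, Rdx, Nf2, Nmt1, Myc, Cfl1, Prkcq and the calmodulin genes were named after their values were seen. The most abundant gene of the list of ERM partners is not reported here. Marcks has no entry in the promoter table. Floors of 3 reads and counts cover counting error only.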

Additional observations from a re-analysis of the deposited data

Results flagged for a closer look

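Of 72 groups of 4 libraries examined, 5 held a library whose gap to the rest was large for the range of its group; chance gives about 1 in 20. Marcks was at 20.1 CPM in EAF2Faslpr replicate 3, while its 3 companions lay between 12.5 and 13.2 CPM. In the same library the B cell gene Cd79a was at 99.6 CPM, with the others between 41.9 and 50.1 CPM, and the neutrophil gene S100a8 at 24.9 CPM, with the others between 0.655 and 1.60 CPM. In Faslpr replicate 4 the T cell adaptor gene Lat was at 881 CPM, with the others between 632 and 675 CPM, and the globin gene Hbb-bs at 9.04 CPM, with the others between 1.89 and 2.48 CPM. No library of Basp1, Marcksl1, Ezr or Msn stood apart in this way.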

How the results depend on the processing

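Marcksl1, Ezr and Msn kept their direction and stayed short of the threshold in each of the 16 alternative settings. Basp1, chosen for its fall, ran from −4.99 to −4.29 on the log2 scale, which is given as a description. Marcks lay between 0.54 and 0.81 without 1 library, and at 0.73 without both replicates numbered 4 (adjusted p = 0.0938), where it lost its call. All genes called were 990 to 1599 without 1 library and genes called lower 372 to 659, both fewest without Faslpr replicate 2, against 1493 and 612 with all 8 libraries; without both replicates numbered 4, 403 were lower. Calls per list without 1 library were 1 to 2 in the PIP2-sequestering family, 1 to 3 among ERM partners, 2 to 4 in PIP2 breakdown, and 0 to 1 in each of the myristoylation, spectrin and nuclear BASP1 partner lists. Without both replicates numbered 4 there was 1 call in the PIP2-sequestering family, 3 in PIP2 breakdown and 1 in the spectrin list. By DESeq2 there was 1 call each in the spectrin and nuclear partner lists. On log2 FPKM, with a pseudocount of 1 or 0.1, the myristoylation list had 0 calls. Among genes that never passed, Pfn1 turned to 0.025 without both replicates numbered 4, and Hdac1 to 0.029 without Faslpr replicate 1, within −0.046 to 0.029 over the fits without 1 library. The cause was not tested.

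The libraries were not treated as paired in the main fit: deviations of same-numbered libraries from their group means correlated at 0.128, 0.168, 0.064 and −0.050. Such weak values cannot show that no pairing exists. With the replicate block 1425 genes passed, 1 gene each among ERM partners and nuclear partners and 0 in the myristoylation list. Depth limits genes near 1 CPM, such as Pip4p2.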
